A study of Mus musculus with 20 samples.

Results

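The 20 kidney arrays hold 10 from male mice, and these 10 fall into 2 sets by the way the animal is numbered. In 5 titles the number carries the prefix 30 (M30-1, M30-2 and M30-5 among the controls, M30-3 and M30-4 among the injected males), and in the other 5 it has no prefix (M13 and M12 among the controls, M7, M9 and M11 among the injected males). The labels do not say what the prefix marks. All animals were Balb/c mice of about 10 weeks. The injected males had received 12 mg/kg doxorubicin into a vein and were killed on day 14, and the controls are titled healthy. Doxorubicin is an anthracycline that injures podocytes and is used in this strain as a model of albuminuria and glomerulosclerosis. The study itself compared the sexes and the effect of doxorubicin. The 2 sets of males were compared here as a property of the samples, with control or doxorubicin as a block, because each set holds animals of both titles. Every array measured total RNA of a whole kidney from 1 animal, so that fewer cells of a type and less RNA per cell cannot be told apart. The p-values measure the spread between these animals, together with that of labelling and hybridizing 1 array each. The titles do not say whether the 2 sets were processed together, and these p-values do not measure a difference between processing runs.

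The arrays carry short probes grouped in probe sets, most of them placed near the 3′ end of a transcript. RNA is copied from its poly-A tail towards the 5′ end, and a copy that is cut short or never completed gives signal at the 3′ end alone. For this reason the manufacturer placed additional probe sets at the 3′ end, the middle and the 5′ end of a few mouse transcripts, among them Gapdh (a glycolytic enzyme), Actb (beta-actin), Pcx (pyruvate carboxylase, a mitochondrial enzyme of gluconeogenesis abundant in the proximal tubule) and Tfrc (the transferrin receptor). Bacterial transcripts added to the hybridization mix report on the hybridization step alone. All values below are log2 intensities, on which each unit is a doubling, and differences are the prefix 30 set minus the set without prefix.

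The 5′ probe set of pyruvate carboxylase separated the sets completely. Its log2 intensity was 2.38 in M30-1, 2.37 in M30-2, 2.36 in M30-5, 2.35 in M30-3 and 2.36 in M30-4, near the floor of the scale. It was 5.95 in M13, 6.32 in M12, 3.89 in M7, 6.70 in M9 and 5.56 in M11. All 5 males without prefix lay above all 5 males with it, and M7 was the lowest of the former. The difference within titles was -3.39 (exact permutation test within titles, two-sided p = 0.01, the smallest that the 100 arrangements allow, adjusted p = 0.0267 over 8 quality measures). The 3′ probe set of the same transcript went the other way and averaged 12.01 ± 0.12 (SD, n = 5) in the 30-x males against 11.57 ± 0.10 in the others, so that 3′ minus 5′ was 9.65 ± 0.11 against 5.89 ± 1.12.

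Among the other quality measures, Gapdh 3′ minus 5′ was 0.34 ± 0.15 (SD, n = 5) in the 30-x males and 0.09 ± 0.11 in the males without prefix, a difference of 0.27 (exact permutation p = 0.02, adjusted p = 0.04). The ranges of 0.14 to 0.54 and -0.02 to 0.26 overlapped. Actb 3′ minus 5′ was 1.75 ± 0.12 against 1.59 ± 0.19 (difference 0.19, exact permutation p = 0.08, adjusted p = 0.107) and did not pass. For Tfrc the sign was opposite, at 2.39 ± 0.98 against 3.86 ± 0.73 (difference -1.62, exact permutation p = 0.03, adjusted p = 0.048), but its 5′ probe set did not exceed 3.58 in any male, and its 3′ probe set was lower in the 30-x males (4.92 ± 0.97 against 6.70 ± 0.81). The 18 hybridization spike probe sets averaged 10.46 ± 0.16 in the 30-x males and 10.79 ± 0.07 in the others, again without overlap (difference -0.32, exact permutation p = 0.01, adjusted p = 0.0267). The 27 poly-A spike probe sets stayed near the floor (2.41 against 2.39, difference 0.01, exact permutation p = 0.42) and the array medians were 6.02 and 6.04 (difference -0.01, exact permutation p = 0.57). With labels permuted over all 10 arrays the Tfrc difference did not pass (exact permutation, adjusted p = 0.0508). Single control probe sets without overlap, shown here with no test, included 18S rRNA 5′ (3.43 to 3.53 in the 30-x males against 4.33 to 5.43) and the middle Actb set (11.35 to 12.06 against 12.48 to 13.16). Of the 8 measures, those of pyruvate carboxylase, Gapdh, Tfrc and the hybridization spikes thus passed.

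One female shared the 5′ signal of the males without prefix. The control female numbered No5 had 5.80 for 5′ pyruvate carboxylase, against 2.33 to 2.37 in the 9 other females. Her Gapdh 3′ minus 5′ of -0.10 and Actb 3′ minus 5′ of 1.11 were below those of all other females (0.29 to 1.64 and 1.99 to 3.23). This animal therefore serves below as a measured companion of the 5′ signal: for many genes its level in No5 is given against the 9 other females, without any statement on what the 5′ signal stands for.

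**Figure D1:**
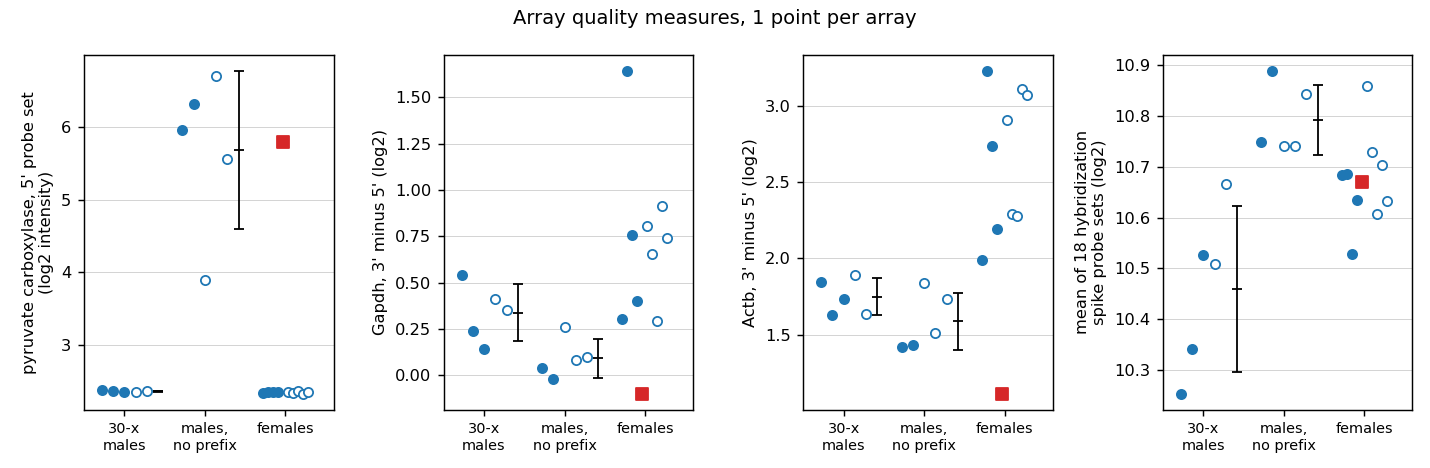
Array quality measures by set, 1 point per array on a log2 scale (filled: control, open: doxorubicin, red square: control female No5, bars: mean ± SD of 5 males). The 5′ pyruvate carboxylase signal lies at 2.35 to 2.38 in the 30-x males, at 3.89 to 6.70 in the males without prefix and at 5.80 in No5, and the hybridization spikes do not overlap between the male sets.

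Kidney markers were at high levels in all 10 males: Slc34a1, the proximal tubule phosphate transporter, at 13.32 to 14.14 and Umod, the uromodulin of the thick ascending limb, at 14.94 to 15.14. Xist, the RNA of the inactive X chromosome, was at 1.89 to 6.21 in the males and at 12.29 or more in every female. The Y-linked translation factor gene Eif2s3y was at 3.69 in M12 and 6.09 in M30-4 against 7.95 to 10.03 in the 8 other males, while in females it did not exceed 2.75. M12 had 6.35 for Kdm5d and 7.44 for Uty, inside the range of the other males, and M30-4 was the lowest male for both genes (4.50 and 5.45). In a principal component analysis of the 10 arrays the first component, with 49.5% of the variance, put the 30-x males at 21.4 to 69.8 and the others at -40.6 to -28.1. The second (20.1%) set M30-4 apart at -57.9 from the other 9 arrays at -15.3 to 29.3, so a count is also given without M30-4 where that changes it by more than 1.5 times.

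The difference between the sets was broad. Of 22626 probe sets, 1819 (8.04%) were higher and 1360 (6.01%) lower in the 30-x males at a Benjamini-Hochberg adjusted p under 0.05 in limma, a linear model that pools the spread over probe sets. At an unadjusted p under 0.05 the number was 5872. In 1567 probe sets (6.93%) all 5 values of the 30-x males lay above all 5 of the others, and in 1323 (5.85%) below. Counted with 1 probe set per gene, the brightest, 1253 of 12393 genes (10.1%) were higher and 553 (4.46%) lower, with a median difference of 0.01. The brightest was chosen by the mean over all 10 males, 30-x values included, so this choice is not independent of the calls. Without M30-4 the count was 3384 in place of 3179 probe sets, without M12 it was 2207, in control males alone 1955 and in injected males alone 370.

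Calls in either direction went with the position of No5 among females. No5 lay above all 9 other females in 4810 probe sets (21.3%) and below all in 5093 (22.5%). Among the 1360 probe sets called lower in the 30-x males it was above in 890, or 65.4%, and among the 1819 called higher it was below in 957, or 52.6%. The corresponding shares for each of the 9 other females ran from 2.5% to 6.54% and from 2.09% to 7.86%. When all 20 arrays were fitted with the 5′ pyruvate carboxylase signal as a covariate, 337 probe sets (1.49%) were called for the male prefix difference. Among males that signal and the prefix cannot be told apart, and the covariate rests largely on No5. The part of the 5′ signal in any single difference was not tested beyond these values.

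Of the 12 largest decreases among probe sets without overlap, the 10 other than Fabp1 and Cyp4a14 (below) all had No5 above the 9 other females. For Sppl2a, an intramembrane protease, 1 probe set read 3.04, 2.89, 3.68, 3.46 and 2.87 in M30-1, M30-2, M30-5, M30-3 and M30-4 and 9.31, 9.38, 8.80, 8.94 and 8.80 in M13, M12, M7, M9 and M11. The 30-x values were all near the floor and the others all high, a difference of -5.91 ± 0.19 (SE, limma adjusted p = 4.9e-06). No5 had 9.41 and the 9 other females 2.23 to 3.05. With 16 added to the linear values it was -4.48, so the size depends on the low 30-x signals. A second probe set of the gene differed by -0.67, and the brightest by -0.22 without a call. Hnf4a, a nuclear receptor of the proximal tubule, read 3.67, 4.66, 4.41, 2.92 and 3.49 against 9.30, 9.51, 8.42, 8.96 and 8.65 in 1 probe set in the same order of animals, again with no overlap (-5.31 ± 0.22). No5 had 9.77 there and the other females 3.33 to 4.17, but the 3 brighter Hnf4a probe sets differed by no more than -0.21 and none was called. Acsm2, a medium-chain acyl-CoA synthetase of the proximal tubule, showed the same contrast between 1 dim probe set (-5.0) and 3 bright ones (-0.39 to 0.33), of which the 1 at -0.39 was called.

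Other probe sets of this group were Hdlbp (a vigilin RNA-binding protein, -5.12), Tef (a PAR bZIP clock-output factor, -5.12), Cpd (carboxypeptidase D, -5.07), Rgs5 (a pericyte regulator of G-protein signalling, -4.84), Slc29a3 (a nucleoside transporter, -4.66) and Trip12 (a ubiquitin ligase, -4.50). Their 30-x values were low, and for all but Cpd near the floor, so these sizes are not exact: with 16 added to the linear values they were -3.43, -3.29, -4.47, -3.20, -2.60 and -2.95 in the same order. In each of these 6 the 2 sets of males did not overlap and No5 was above all other females, for example 8.92 against 2.65 to 2.75 for Hdlbp and 8.64 against 2.58 to 3.03 for Rgs5. With the covariate none of them was called, and their differences were -2.0 to -0.71. The brightest probe sets of Hdlbp (-0.04), Tef (0.12), Cpd (0.09), Rgs5 (-0.45) and Trip12 (-0.20) were not called. Further dimmer probe sets were called lower for Hdlbp (-4.25 and -0.51), Tef (-4.03) and Rgs5 (-1.72). Malat1, a nuclear noncoding RNA, was lower in all 5 of its probe sets, from -5.76 ± 0.19 to -2.57 ± 0.28. In the probe set with the largest difference the lowest male without prefix (9.89 in M7) was far above the highest 30-x male (4.78 in M30-1), and No5 had 10.06 against 4.19 to 6.27. With the covariate that probe set differed by -2.73 (limma adjusted p = 0.0999).

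In some genes the probe sets were called in opposite directions. Of 4956 genes with several named probe sets, 46 had calls in both directions, 103 were higher in all and 76 lower in all. For Ywhaz, a 14-3-3 signalling adaptor with 7 probe sets, the differences ran from 1.36 to -3.40. Cemip2, a hyaluronidase, had 1.37 and -2.59, Sdc4, a cell surface proteoglycan, had 2.02 and -1.28, and Actb had 1.51 and -0.89. The dimmer probe sets of a gene were called lower more often than higher (8.71% and 5.62% of 7987), whereas the brightest of several were called higher more often (10.9% and 5.69% of 4956), as were those that stand alone for a gene (9.59% and 3.64% of 7437). These are descriptions of the chip, since the probe sets share the same 10 kidneys.

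**Figure D2:**
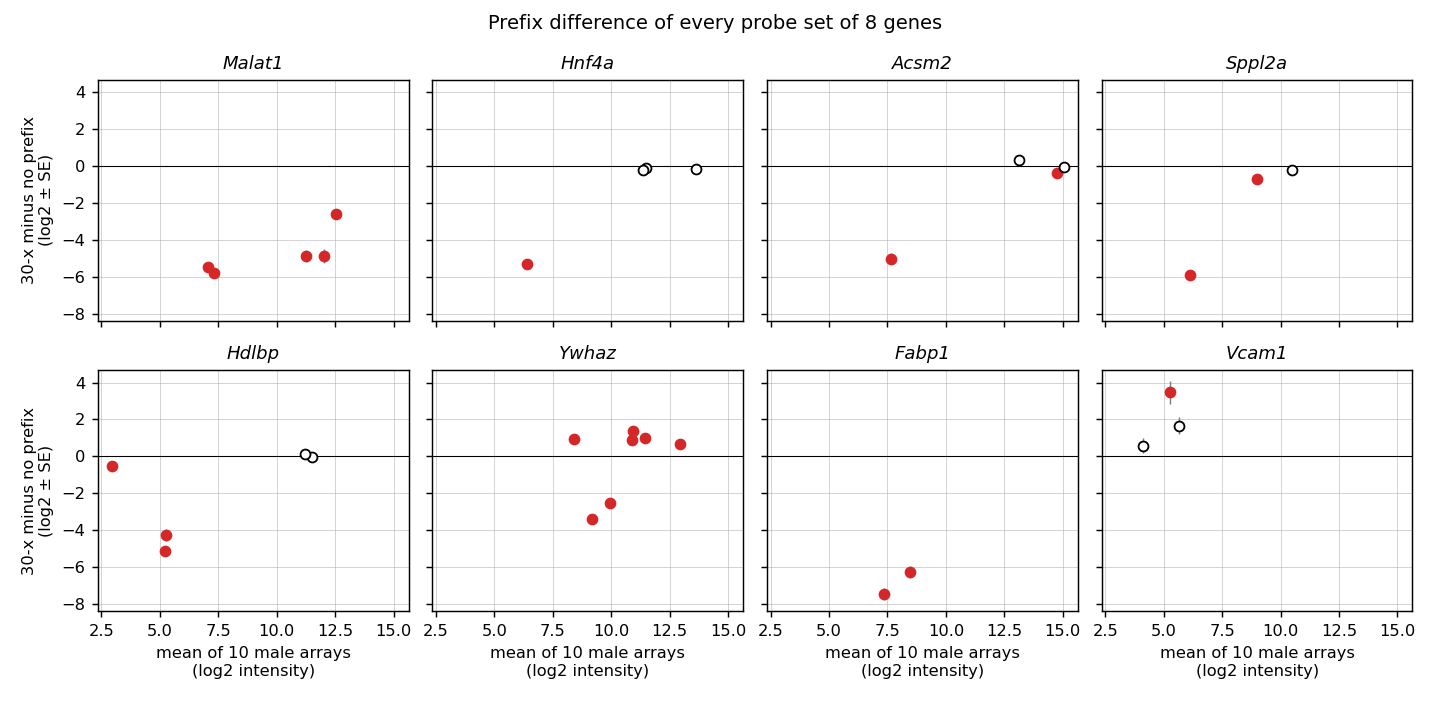
Prefix difference (log2, ± SE) of every probe set of 8 genes against its mean log2 intensity over the 10 males (red: called, white: not called). In Hnf4a, Acsm2, Sppl2a and Hdlbp at least 1 dim probe set differs by -5.0 or further below 0 while bright ones lie near 0, Ywhaz has calls on both sides, and all probe sets of Fabp1 and Malat1 are lower.

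Among the named probe sets the lowest value of the difference was that of Fabp1, the liver-type fatty acid binding protein that carries long-chain fatty acids in the proximal tubule. In the dimmer of its 2 probe sets the levels were 2.42 in M30-1, 3.83 in M30-2, 3.36 in M30-5, 3.53 in M30-3 and 4.57 in M30-4, against 10.68 in M13, 11.10 in M12, 11.58 in M7, 11.00 in M9 and 11.36 in M11. The sets were more than 6 units apart with no overlap. The difference was -7.47 ± 0.32 (limma adjusted p = 1.5e-05), and -6.24 with 16 added to the linear values, since the size depends on the low signals of the 30-x males. In the brighter probe set these read 4.03, 5.35, 5.55, 5.43 and 6.11 against 11.26, 11.62, 12.00, 11.41 and 11.97, again apart (-6.24 ± 0.33). Unlike the genes above, No5 had 7.94, just below the 8.15 to 10.16 of the other females, and the difference with the covariate was -8.82 (limma adjusted p = 2.6e-05).

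Fabp1 is a textbook target of PPARA, the nuclear receptor that fatty acids activate and that switches on genes of fatty acid uptake, peroxisomal and mitochondrial oxidation and ketone production during fasting. In kidney it acts mainly in the proximal tubule, together with its partner RXR at paired short repeats in target promoters. To show such a site, the Fabp1 promoter (GRCm38.p6, chr6:71199629-71199928, plus strand, from RefSeq) is printed with the match in capitals. The letters searched, on either strand, were AGGNCA, then any base, then AGGNCA again. The match starts 67 bases before the transcript start.
Fabp1: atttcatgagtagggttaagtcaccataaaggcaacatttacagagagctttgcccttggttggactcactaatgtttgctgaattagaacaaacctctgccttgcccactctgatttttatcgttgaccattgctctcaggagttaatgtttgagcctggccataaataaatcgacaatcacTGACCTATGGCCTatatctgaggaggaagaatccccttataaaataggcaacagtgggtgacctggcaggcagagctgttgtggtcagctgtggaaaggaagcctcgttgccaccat
Such a match was found in 125 of 32851 promoter windows of 300 bases (0.381%). Of 15 measured members of a list of PPARA and fasting genes, to which Fabp1 does not belong, 12 have a promoter in the table and 0 hold the element in that window, which says only that these letters are not there.

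The PPARA list was lower in the 30-x males. Of its 15 measured members 9 were called lower and 0 higher, beside 4.46% and 10.1% of all genes, with a median difference of -0.80 against 0.01 for all genes. Without M30-4 the count was 10, and with the covariate 6. The lowered members covered omega-hydroxylation, peroxisomal and mitochondrial oxidation, acyl-CoA hydrolysis and lipid storage. The list was chosen with results of these data known.

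Cyp4a14, a microsomal fatty acid omega-hydroxylase whose family members are close in sequence, had the largest difference of the list. It read 6.48, 6.81, 8.19, 10.07 and 10.44 in M30-1, M30-2, M30-5, M30-3 and M30-4, and 14.48, 14.50, 14.62, 14.87 and 14.82 in M13, M12, M7, M9 and M11. The males without prefix were tightly grouped at the top, and among the 30-x males the 2 injected animals were above the 3 controls. The difference was -5.92 ± 0.59 (limma adjusted p = 0.0008), and -5.73 with the covariate (limma adjusted p = 0.0082). The 10 females, No5 included, lay between the male sets at 12.78 to 13.29.

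Vnn1, a pantetheinase that regenerates the precursor of coenzyme A, was the most even member. Its levels were 11.20, 11.00, 11.22, 11.31 and 11.55 in the 30-x males against 13.52, 13.51, 13.66, 13.52 and 13.87, in the same order of animals. The sets were separated by more than their whole ranges (difference -2.31 ± 0.08, limma adjusted p = 7.5e-06, with the covariate -3.02). Acot1, a cytosolic acyl-CoA thioesterase, read 9.35, 9.32, 9.65, 10.30 and 11.14 against 12.28, 12.27, 12.37, 11.93 and 12.56, with M30-4 the nearest to the other set and no overlap (-2.20 ± 0.29, with the covariate -2.10). Ehhadh, the bifunctional enzyme of peroxisomal oxidation, read 14.00, 13.92, 14.16, 13.83 and 13.69 against 15.04, 14.84, 14.92, 14.99 and 15.07 (-1.07 ± 0.09, with the covariate -1.17). Plin2, the coat protein of lipid droplets, read 9.96, 9.58, 9.29, 9.83 and 10.34 against 11.71, 11.79, 11.65, 10.92 and 12.19 (-1.82 ± 0.27, with the covariate -2.20). The groups did not overlap for either of these genes. Of the remaining called members, Acaa1b (peroxisomal thiolase, -0.80), Hadha (mitochondrial trifunctional protein, -0.56) and Acot2 (mitochondrial acyl-CoA thioesterase, -1.30) were also lower, and Acaa1b was called with the covariate (-1.67) while Hadha (-0.87) and Acot2 (-0.84) were not.

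Ppara itself behaved otherwise. It read 9.42, 8.87, 9.33, 8.97 and 9.48 in the 30-x males and 10.59, 10.71, 10.12, 10.74 and 10.26 in the others, without overlap (difference -1.30 ± 0.18, limma adjusted p = 0.0028). No5 had 10.56 against 7.89 to 8.90 in the other females, and with the covariate the difference was 0.09 (limma, no call). Among the 9 lowered members Ppara was the 1 for which No5 lay above all other females. Members that were not called were Slc25a20, the mitochondrial carnitine carrier (-0.54), Acadm (-0.29), Cpt1a, the gate of mitochondrial fatty acid entry (-0.08), Angptl4 (0.40), Pdk4 (0.14) and Fgf21, which stayed at the floor (1.87 to 1.90). Angptl4 and Pdk4 ranged over 6.68 to 11.28 and 7.21 to 10.25 in overlapping sets. With Gapdh 3′ minus 5′ as a covariate, 4 list members were called lower, in a fit that called 698 probe sets. The counts of other lists in that fit are given at the end.

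**Figure D3:**
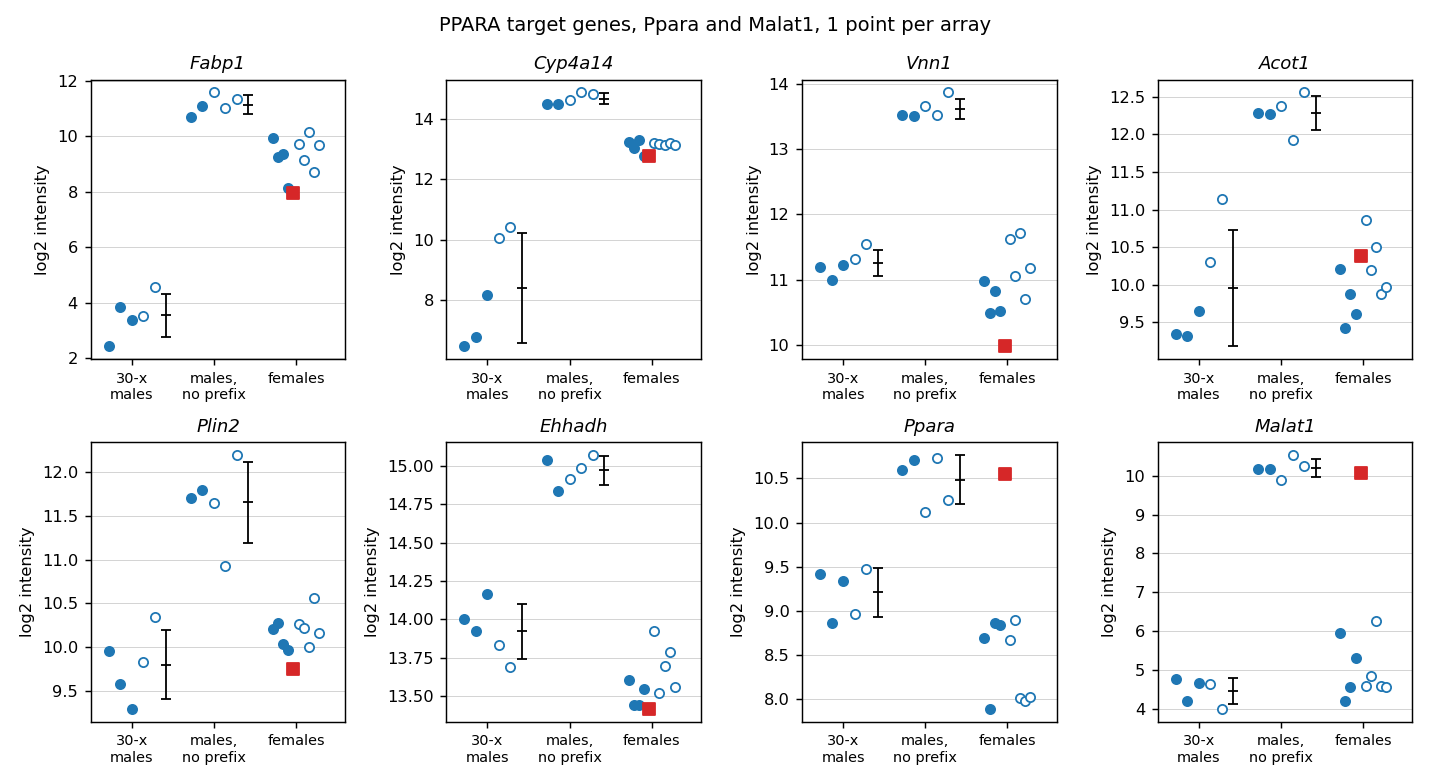
Log2 intensity of Fabp1, 5 genes of the PPARA list, Ppara and Malat1 in every array (filled: control, open: doxorubicin, red square: control female No5, bars: mean ± SD of 5 males). For Fabp1, Cyp4a14, Vnn1, Acot1, Plin2 and Ehhadh No5 lies within or below the range of the other females, and for Ppara (10.56) and Malat1 (10.06) it lies with the males without prefix.

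Several stress genes were lower in the 30-x males as well. NRF2 is the transcription factor that raises glutathione synthesis and quinone reduction under oxidative stress, through antioxidant elements in promoters. Of 14 measured genes of this response 5 were lower and 0 higher (median -0.43), beside 4.46% and 10.1% of all genes. With the covariate 0 were called, in a fit that called 1.49% of all probe sets. Gclm, the modifier subunit of the enzyme that makes the glutathione precursor, read 12.24, 12.01, 11.86, 11.77 and 11.52 in the 30-x males and 12.90, 12.94, 13.03, 13.17 and 13.13 in the others. All 30-x values were lower (-1.17 ± 0.13, limma adjusted p = 0.0012), but No5 had 12.65 against 11.23 to 11.67 in the other females and the difference with the covariate was -0.44. Its catalytic partner Gclc (-0.81) and the autophagy adaptor Sqstm1 (-0.65) also had No5 above all other females. Nqo1, the quinone reductase, read 9.62, 9.76, 9.22, 9.34 and 9.85 against 10.42, 10.21, 10.71, 10.89 and 11.52 (-1.11 ± 0.22, limma adjusted p = 0.015). For Nqo1 and Txnrd1, the thioredoxin reductase (-0.36), No5 was not above the other females, and with the covariate the differences were -1.24 and -0.51 with no call.

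Heat shock genes encode chaperones that refold proteins and are driven by HSF1 at heat shock elements. Here 6 of 16 were lower and 0 higher (median -0.61), beside 4.46% and 10.1% of all genes. The lower count was 9 without M30-4 and 2 with the covariate. Hsph1, a nucleotide exchange factor for the chaperone HSP70, read 12.00, 11.92, 11.47, 11.06 and 10.98 in the 30-x males against 12.43, 12.48, 12.26, 12.19 and 12.00. The sets met at 12.00 (-0.90 ± 0.13, limma adjusted p = 0.0043), and with the covariate the difference was -1.69. Chordc1, a co-chaperone of HSP90, read 9.89, 10.01, 9.94, 9.59 and 8.52 against 10.57, 10.60, 10.22, 10.28 and 10.40, with M30-4 the lowest (-0.94 ± 0.21, with the covariate -1.83). The other lowered members were Ahsa1, which activates HSP90 (-0.73), Hsp90aa1, the inducible HSP90 (-0.71), the J-domain protein Dnaja1 (-0.61) and the constitutive chaperone Hspa8 (-0.32). No5 was above all other females for 0 of these 6. The strongly inducible Hspa1a (-0.95) and Hspa1b (-0.61) overlapped between the sets and were not called, with 10.62 in M13 and 10.13 in M12 as the highest values of Hspa1a.

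Of the lowered stress genes whose promoters hold the matching letters, 1 of the oxidative stress list and 2 of the heat shock list are printed. They show where the letters lie (RefSeq, GRCm38.p6, 300 bases, matches on either strand in capitals). The lists were not put together by these letters. Gclm lies at chr3:122245307-122245606 on the plus strand with TGACNNNGC read on the minus strand, Hsph1 at chr5:149636287-149636586 on the minus strand and Chordc1 at chr9:18292017-18292316 on the plus strand, the last 2 with GAANNTTC. The Hsph1 window belongs to 1 of 2 listed transcript starts, and its match begins 41 bases after that start.
Gclm: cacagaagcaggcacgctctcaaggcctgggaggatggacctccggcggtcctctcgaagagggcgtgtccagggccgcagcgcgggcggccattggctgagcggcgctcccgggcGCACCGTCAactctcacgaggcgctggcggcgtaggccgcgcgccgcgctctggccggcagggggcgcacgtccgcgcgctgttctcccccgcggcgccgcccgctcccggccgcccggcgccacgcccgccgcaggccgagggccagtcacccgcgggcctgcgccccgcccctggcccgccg
Hsph1: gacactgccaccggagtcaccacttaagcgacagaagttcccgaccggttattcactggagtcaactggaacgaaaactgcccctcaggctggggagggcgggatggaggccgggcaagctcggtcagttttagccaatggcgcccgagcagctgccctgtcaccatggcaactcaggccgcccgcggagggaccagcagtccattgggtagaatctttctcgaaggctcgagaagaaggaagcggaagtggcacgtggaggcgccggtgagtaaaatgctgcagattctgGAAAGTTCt
Chordc1: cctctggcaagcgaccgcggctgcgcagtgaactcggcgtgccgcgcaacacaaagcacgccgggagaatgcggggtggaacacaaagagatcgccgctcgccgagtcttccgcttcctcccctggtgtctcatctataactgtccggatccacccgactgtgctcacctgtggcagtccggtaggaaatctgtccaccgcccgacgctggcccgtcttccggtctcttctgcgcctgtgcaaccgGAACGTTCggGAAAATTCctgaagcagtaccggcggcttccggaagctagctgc
A gene was counted if any of its windows held the letters. The antioxidant letters are present in 4 of 11 genes of that list (14.0% of all genes, 12.4% of all windows). They are present in 2 of its 4 called genes with a promoter, Gclm and Txnrd1. The heat shock letters are present in 9 of 13 genes (9.04% of all genes, 7.86% of all windows) and in 3 of 4 called genes, Hsph1, Dnaja1 and Chordc1. Chordc1 holds the letters in 2 places. A match is a description of the letters and not evidence of binding.

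In the unfolded protein response list 2 of 16 were lower and 0 higher, beside 4.46% and 10.1% of all genes. The lower ones were Hspa5, the main chaperone of the endoplasmic reticulum (-0.74), and its co-chaperone Dnajb9 (-0.33). Without M30-4 the lower count was 4. Of 31 proteasome genes 8 were lower and 1 higher (median -0.10), led by the core subunits Psma2 (-0.38) and Psma4 (-0.68), 10 were lower without M30-4, and 0 were called with the covariate. Psmd2 of the regulatory particle was the higher one (0.39) and was not called without M30-4. Of 32 ribosomal protein genes 3 were lower, at -0.28 to -0.24, and 5 without M30-4. No gene of the lists of p53 targets or interferon-induced genes was called, and without M30-4 1 p53 target was higher.

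Calls in cholesterol synthesis went the other way. SREBP2, encoded by Srebf2, switches on the enzymes of this pathway when sterols run low. Of 14 measured genes 7 were higher and 0 lower in the 30-x males (median 0.62), beside 10.1% and 4.46% of all genes. The counts were 8 and 1 without M30-4, and 3 were called higher with the covariate. Srebf2 read 7.68, 7.51, 7.51, 7.70 and 7.65 in the 30-x males and 6.93, 7.02, 7.10, 6.99 and 6.93 in the others, with both sets narrow and apart (0.63 ± 0.05, limma adjusted p = 0.0003, with the covariate 0.77). Nsdhl, a sterol dehydrogenase, read 11.10, 11.11, 11.04, 11.19 and 11.16 against 10.44, 10.64, 10.17, 10.17 and 10.17 (0.77 ± 0.09, with the covariate 1.14). Dhcr7, which makes the last step to cholesterol, read 7.67, 7.76, 8.20, 7.81 and 8.68 against 6.5, 6.65, 6.69, 6.80 and 6.35 (1.46 ± 0.20, with the covariate 1.69 and no call). For none of these 3 genes did the sets overlap. Mvd (1.29), Fdps (1.20), Fdft1 (0.68) and Cyp51 (0.56), enzymes between mevalonate and lanosterol demethylation, were also higher, and Cyp51 was called with the covariate (1.01). Hmgcs1, the entry enzyme, was not called (-0.26). The sterol element, ATCAC then any base then CCAC, was found in 0 of 10 genes of the list with a promoter. It was found in 0.27% of all genes and 0.234% of all windows.

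Energy metabolism showed many small increases. Of 42 genes of the respiratory chain and ATP synthase 14 were higher and 3 lower (median 0.12), beside 10.1% and 4.46% of all genes. The counts were 17 and 2 without M30-4, and 1 was called with the covariate. Ndufv2, a complex I subunit, read 13.89, 13.88, 13.97, 14.02 and 13.99 against 13.46, 13.50, 13.42, 13.47 and 13.43 (0.50 ± 0.03, limma adjusted p = 0.00013). That gap is several times the spread within either set. Of 16 glycolysis and hypoxia genes 6 were higher, Tpi1, Aldoa, Pkm, Pfkl, Ldha and the glucose transporter Slc2a1, by 0.39 to 0.84, and 1 was lower, the collagen prolyl hydroxylase P4ha1 (-0.34). No5 was below all other females in 5 of the 6 and none was called with the covariate.

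Androgen-induced kidney genes were measured because kidney expression in male mice depends on testosterone. Of 12 genes 4 were higher and 0 lower (median 0.39), beside 10.1% and 4.46% of all genes. Akr1c21, a hydroxysteroid dehydrogenase, read 12.70, 12.80, 12.73, 12.23 and 12.60 in the 30-x males and 11.46, 11.24, 10.80, 10.26 and 10.67 in the others. Every 30-x male was higher (1.61 ± 0.14, limma adjusted p = 0.0005), while No5 (3.30) lay within the females (2.71 to 4.69). Gusb, beta-glucuronidase, read 12.74, 12.35, 12.56, 11.57 and 12.57 against 11.43, 11.51, 9.87, 10.25 and 10.67 (1.45 ± 0.25, with the covariate 2.00), and Adh1, an alcohol dehydrogenase, 14.26, 14.03, 13.83, 13.58 and 13.67 against 12.81, 12.82, 12.54, 12.55 and 12.56 (1.15 ± 0.08). Both were without overlap. Cyp2e1 was 0.28 higher. The most abundant androgen-dependent transcript, Kap, was at 15.80 to 16.19 in all 10 males (-0.05), and Slco1a1 (0.50), Slc7a13 (0.39), Cyp7b1 (-0.03) and Cyp4b1 (0.01) were not called.

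Clock genes were examined because kidney transcripts follow the time of day. Of 18 measured, 1 was higher and 1 lower, beside 10.1% and 4.46% of all genes, so by count the list did not stand out. The counts were 5 higher and 1 lower in control males alone and 1 and 0 without M30-4. Per1, a repressor of the clock that glucocorticoids also induce, read 7.24, 6.75, 6.59, 5.92 and 6.5 in the 30-x males against 5.16, 4.85, 4.89, 4.87 and 4.82 (1.60 ± 0.18, limma adjusted p = 0.0013). Nr1d1, the REV-ERB alpha receptor, read 4.37, 4.55, 4.42, 6.70 and 5.74 against 7.39, 6.42, 7.16, 6.84 and 6.94 (-1.61 ± 0.38, limma adjusted p = 0.028), with M30-3 inside the range of the other set. With the covariate neither was called. Of 25 immediate early genes, which respond to handling and growth signals, Zfp36 was higher (1.03) and Junb lower (-0.97). Of 30 splicing genes Malat1 was lower and Hnrnpd higher (0.41), while without M30-4 2 were lower and 4 higher. With all arrays, both lists were below the shares of all genes in each direction.

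**Figure D4:**
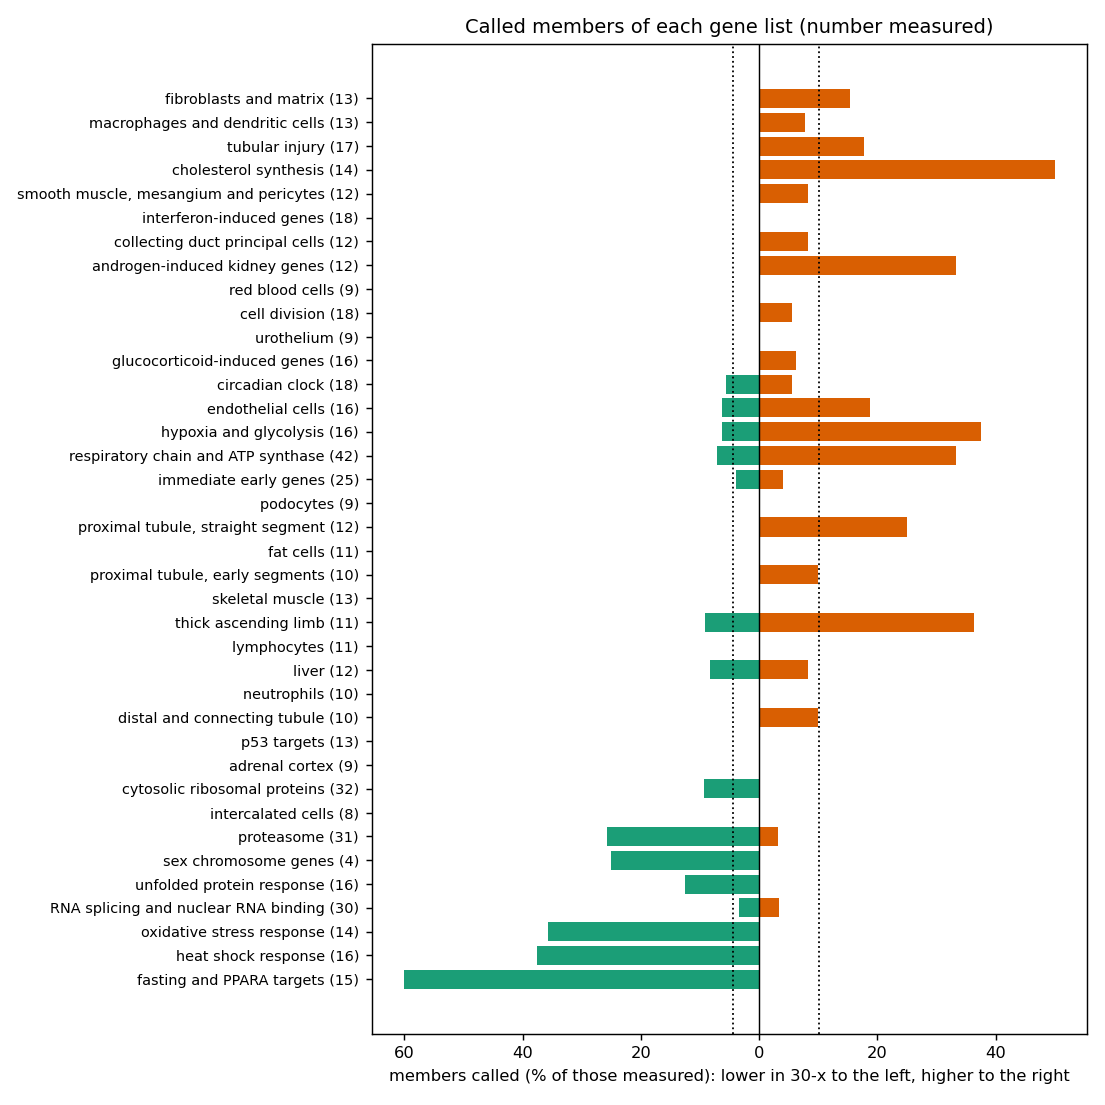
Share of the measured members of each gene list called higher (right, orange) or lower (left, green) in the 30-x males, with the number measured in brackets and the lists in order of their median difference (dotted lines: 10.1% and 4.46%, the shares of all genes). The lists of PPARA and fasting genes, heat shock and oxidative stress have 9 of 15, 6 of 16 and 5 of 14 members on the lower side, and cholesterol synthesis has 7 of 14 on the higher side.

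Among 19 lists of cell types, calls in tubule segments were scattered. The counts stand beside 10.1% higher and 4.46% lower of all genes. In the thick ascending limb list 4 of 11 were higher and 1 lower (median 0.01), namely the claudins Cldn16 (0.61) and Cldn19 (0.61), Ptger3 (0.59) and Ppp1r1a (0.50) against Cldn10 (-0.49), while Umod differed by 0.01. In the straight proximal tubule 3 of 12 were higher, led by Acy3, an aminoacylase (0.79), and Slc22a7, an organic anion transporter (1.49). In the early proximal tubule 1 of 10 was higher, Slc34a1 (0.48), a count near the share of all genes. These 3 lists had 0, 1 and 1 called members with the covariate. Endothelial genes split: Plvap, the diaphragm protein of fenestrated capillaries, read 8.39, 8.61, 8.07, 8.95 and 9.29 against 10.01, 9.88, 10.39, 10.06 and 10.34 without overlap (-1.37 ± 0.14), while Tie1 (0.82), Esam (0.59) and Icam2 (0.57) were higher, and without M30-4 2 of the list were. Podocyte, intercalated cell, lymphocyte, neutrophil, red blood cell, fat, adrenal, skeletal muscle and urothelial lists had no call, while without M30-4 2 red blood cell genes and 1 intercalated cell gene were higher. High and low values in both sets were seen for Adipoq, the adipocyte hormone, with 9.27 in M30-1, 6.10 in M30-2, 8.65 in M13, 8.11 in M12 and 6.02 in M9 and 1.81 to 1.90 in the other 5 males.

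Of 13 fibroblast and matrix genes 2 were called higher, the matrix proteins Sparc (1.31) and Fn1 (1.49), and of 13 macrophage and dendritic cell genes 1, beside 10.1% of all genes. The list medians were 1.41 and 0.98. The matrix count depended on the setting: it was 1 without M30-4, 1 to 4 over all arrays left out in turn, 7 among the upper 60% of probe sets or with all 20 arrays, and 0 in controls alone. The mean of the list was 8.51 in M30-3 and 8.66 in M30-4, against 6.48 to 7.59 in the 30-x controls and 6.29 to 6.85 in all males without prefix. Macrophage and dendritic cell genes averaged 7.69 in M30-3 and 8.47 in M30-4 against 6.18 to 7.12 in the 30-x controls and 6.43 to 6.76 in the others. In that list Csf1r, the receptor for colony-stimulating factor 1, read 11.70, 11.54, 11.57, 11.92 and 12.24 in the 30-x males against 10.71, 10.60, 11.11, 10.75 and 10.82 (1.06 ± 0.10, limma adjusted p = 0.0006) with all 5 of the former higher, controls included. Of 17 tubular injury genes 3 were higher, Krt8 (0.75), Clu (0.72) and Vim (0.96), beside 10.1% of all genes. Without M30-4 2 were higher and 1 lower. Havcr1, the injury marker KIM-1, was not called (0.11).

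Whether the sets responded differently to doxorubicin was tested as an interaction, the doxorubicin difference in the 30-x males minus that in the males without prefix. It rests on 2 injected 30-x animals. Of 22626 probe sets 46 (0.203%) were higher and 8 (0.0354%) lower, and 1751 had an unadjusted p under 0.05. The median level of the 46 was 3.70, so many of their sizes depend on signals near the floor and are not exact. In 33 of the 46, M30-3 and M30-4 lay above all 8 other males, and in 10 of the 46, M12 and M13 did. With 1 probe set per gene 25 genes (0.202%) were higher, and 4 of them, Mcm3, Rrm2, Mki67 and Top2a, were among the 18 measured cell division genes. In that list the median doxorubicin difference was 0.90 in the 30-x males, positive in 16 genes, and -0.05 in the males without prefix, positive in 3.

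Rrm2, the ribonucleotide reductase subunit needed for DNA synthesis, read 3.91, 3.96 and 3.85 in the 30-x controls, 6.58 and 6.62 in the 30-x injected males, 3.19 and 3.39 in the controls without prefix and 3.74, 3.39 and 3.37 in their injected counterparts. In this 1 of its probe sets the 2 injected 30-x males stood alone at the top (interaction 2.49, limma adjusted p = 0.0029). The proliferation marker Mki67 showed the same pattern, with 5.09 in M30-3 and 4.95 in M30-4 against 2.43 to 3.11 in the other 8 (2.29). Mcm3, a subunit of the replicative helicase, did not: it read 5.45 and 5.53 in M30-3 and M30-4 but also 5.53 and 5.58 in M13 and M12, and 4.41 to 4.52 in the remaining 6 (2.11). Among matrix genes Col1a1, the fibrillar collagen chain, read 4.41 and 4.62 in the 30-x injected males and 2.34 to 2.49 elsewhere in 1 probe set (2.08), and Col4a1 of basement membranes read 11.74 and 12.06 against 10.55 to 10.96 (1.37). Fgg, the fibrinogen gamma chain, read 6.91 and 7.17 against 3.81 to 4.13 (3.05). Vcam1, an adhesion molecule of injured tubule and activated endothelium, read 7.75 and 8.13 against 4.88 to 5.63 in 1 of its probe sets (2.59, limma adjusted p = 0.0208). The other Vcam1 probe sets, at 2.98 and 1.08, were not called for the interaction (limma adjusted p = 0.278 and 0.806). The former was called for the prefix difference (3.46).

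For S100a10, an annexin partner, the interaction was 0.99, with M30-3 and M30-4 above the 30-x controls and below all males without prefix. For Sqstm1 it was 0.56, and there the injected males without prefix (13.04 to 13.12) were below their controls (13.48 and 13.49). The lower interactions were of another kind: Ubtf, a factor of ribosomal RNA transcription, was at 3.00 to 3.06 in the 30-x males, at 5.75 and 5.78 in M13 and M12 and at 6.81 to 7.02 in the 3 injected males without prefix (-1.11), and Rabgap1 (-1.52) and Adar (-1.17) likewise stayed near the floor in the 30-x males. Vcam1, Rrm2, S100a10, Sqstm1, Rabgap1, Adar and Ubtf followed the naming rule, and Mki67, Mcm3, Top2a, Col1a1, Col4a1, Fgg and Smarcd3 were chosen after their values were seen. Without M30-3 46 of the 46 higher probe sets were still called, and without M30-4 38. The whole count moved from 54 to 2945 (1359 higher and 1586 lower) and 179 in those fits, in which 1 injected 30-x male is left and its spread is taken from the other groups.

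**Figure D5:**
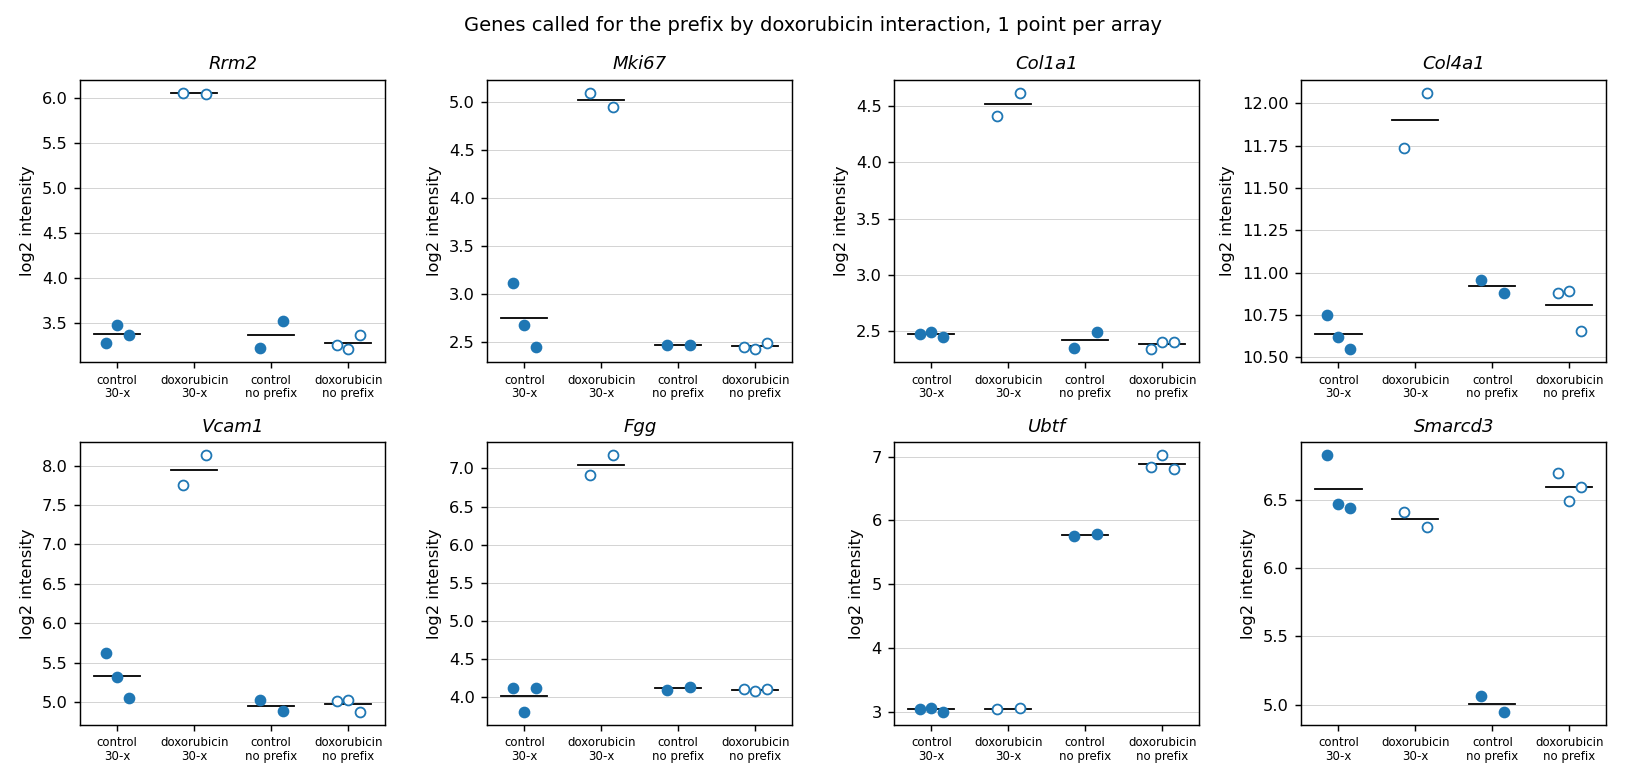
Log2 intensity of 8 genes called for the prefix by doxorubicin interaction in the 4 groups of males, 1 point per array with the group mean as a line. For Rrm2 the plotted probe set is not the 1 whose values are given in the text. In Rrm2, Mki67, Col1a1, Col4a1, Vcam1 and Fgg M30-3 and M30-4 lie above the other 8 males, in Ubtf the injected males without prefix are highest at 6.81 to 7.02, and in Smarcd3 the controls without prefix are lowest.

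In females 4 animals carry the prefix 10, 5 carry none, No5 among them, and 1 carries 30. No probe set (0.0%) differed between the prefix 10 and no prefix (limma, smallest adjusted p = 0.617), and 1795 had an unadjusted p under 0.05. Without No5 there were 0 calls as well. The male difference minus the female difference was positive in 485 probe sets (2.14%) and negative in 261 (1.15%). Where No5 stands apart from the other females she shifts the female difference that is subtracted and widens the spread. Where that shift has the sign of the male difference, the compared value is smaller and passes less easily. For Sppl2a the female difference was -1.87 and the compared value -4.04 ± 1.31 (SE) without a call. For Fabp1 the female difference was -0.10. Without No5 there were 1330 calls in place of 746. Of 3179 probe sets called in males 691 were called in this comparison as well. Because the compared value contains the male difference, such sharing is partly built in. Fabp1 (-7.37) and Cyp4a14 (-6.0) led its lower side among probe sets whose male values did not overlap. On that side 5 PPARA list members were called in all (Vnn1, Ehhadh, Cyp4a14, Acot1 and Plin2). Chosen by the same rule, the higher side was led by Ptpn22, Rnf183, Upp2, Anxa13 and Smcp, all of which were also among the largest increases within males.

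These increases were genes with a level in the 30-x males that neither the other males nor any female reached, in the 4 cases that follow. Ptpn22, a phosphatase best known from lymphocytes, read 8.54, 8.05, 8.40, 7.71 and 7.87 against 4.85, 4.77, 4.78, 3.13 and 4.81 (3.53 ± 0.33, limma adjusted p = 0.0006), and 3.50 to 5.46 in females, No5 included. Upp2, a uridine phosphorylase, in 1 of its probe sets read 7.02, 7.05, 6.89, 4.37 and 2.98 against 2.21 to 2.26, and 2.20 to 2.25 in females, so that the injected M30-3 and M30-4 were below their controls (3.10 ± 0.63, limma adjusted p = 0.016, and 1.65 with 16 added to the linear values). Anxa13, an annexin of epithelial membranes, read 8.30, 7.54, 7.93, 5.98 and 5.87 against 4.11, 3.81, 3.28, 5.37 and 3.74 (2.88 ± 0.54) and was called with the covariate (3.41). Smcp, a mitochondrial capsule protein known from sperm, read 6.06, 6.94, 6.61, 3.97 and 6.01 against 2.92 to 3.36 (2.73 ± 0.44, and 1.61 with 16 added). For none of these 4 genes did the male sets overlap. Hnrnpl (2.84), Ccar2 (3.04) and Nfia (2.83), in contrast, had No5 below all other females, at 6.74 against 8.95 to 9.28 for the splicing factor Hnrnpl. Trpv2, a cation channel, was lower by -2.72 in males against 0.03 in females.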

How the data were processed

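Total RNA of 20 whole kidneys, 1 per mouse, was labelled and hybridized to Affymetrix mouse genome arrays by the authors. The deposited values are linear GCRMA intensities, which the authors made from the scanner files with background correction by probe sequence, normalization between arrays and a summary per probe set; the version is not given in the sources used here. They were converted to log2. Of 22690 probe sets, 64 controls were set aside and used as quality measures, and 22626 were tested. The platform table gave 20380 of them 1 gene, 691 several and 1555 none, and 20351 symbols were updated through Entrez identifiers, for 12393 genes.

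Samples were grouped by their titles. The prefix difference was fitted in limma 3.58.1 (R 4.3.3) with control or doxorubicin as a block, and p-values were adjusted by Benjamini-Hochberg over all 22626 at 0.05. The interaction used the same 10 arrays, and the female difference and its comparison with males used females and all 20 arrays, with the female numbered 30-6 as its own term. No5 was counted among the females without prefix. Quality measures were compared by exact permutation within titles. Python 3.11.15, pandas 2.3.3, numpy 2.4.6 and matplotlib 3.10.9 were used for tables and plots. Depth of an array has no count, and the number of arrays limits the precision. The fitting step was tested on simulated data.

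Named genes were the 12 largest differences in each direction among called probe sets of 1 gene whose 5 values did not overlap with the other 5, and the called members of each list with the smallest adjusted p. All called members of the PPARA, oxidative stress and heat shock lists were also given. A gene stands for its probe set with the highest mean over the 10 males in counts over lists; a gene named for its size stands for the probe set that the rule chose, which can be a dimmer one. The members and the 38 lists were chosen with earlier results of these data known. Alternatives were quantile normalization, median centring, an offset of 16, the upper 60% of probe sets by mean, a robust prior, array weights, a threshold of 0.03, each array left out, other sets of arrays, quality covariates and the methods' t-test. The fit with the 5′ pyruvate carboxylase signal was added after seeing the data. Promoters are RefSeq windows of 250 bases before to 50 after a start.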

Additional observations from a re-analysis of the deposited data

Results flagged for a closer look

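Among 64 sets of 5 values tested for 1 outlying array, 4 had one, and chance gives about 1 in 20. Ptpn22 was at 3.13 in M9 against 4.77 to 4.85 in the other males without prefix. Smcp was at 3.36 in M12 against 2.92 to 2.94. Hdlbp was at 6.78 in M7, the male without prefix with the lowest 5′ pyruvate carboxylase signal, against 7.89 to 8.17. Rgs5 was at 3.05 in M30-3 against 2.62 to 2.69 in the other 30-x males.

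The prefix difference was not the same in injected and control males for 7 probe sets of the naming rule, by the interaction test in limma. The differences of differences were 2.59 for Vcam1, 2.49 for Rrm2, 0.99 for S100a10, 0.56 for Sqstm1, -1.52 for Rabgap1, -1.17 for Adar and -1.11 for Ubtf.

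The male difference between prefix 30 and no prefix was not the same as the female difference between prefix 10 and no prefix for 24 probe sets of the naming rule. On the positive side these were Ptpn22 (3.61), Rnf183 (3.27), Upp2 (3.10), Anxa13 (2.87), Smcp (2.82), Nfia (2.80), Rtn4ip1 (2.78), Bcat1 (2.47), Ccar2 (2.44), Hnrnpl (2.32), Lgals9 (2.25) and Ptgds (2.16). On the negative side they were Fabp1 (-7.37), Cyp4a14 (-6.0), Ccl28 (-4.03), Aldh1a7 (-3.86), Slc29a3 (-3.74), Slc7a12 (-3.65), Dapk1 (-3.34), Pnn (-3.14), Rbm5 (-3.09), Ywhaz (-3.01), Trpv2 (-2.75) and Ggnbp2 (-2.72). The labels do not say whether the prefixes 30 and 10 mark the same thing.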

How the results depend on the processing

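The 3179 calls of the male prefix difference became 337 with the 5′ pyruvate carboxylase covariate (chosen after seeing the data), 698 with the Gapdh covariate, 1955 in controls alone and 370 in injected males alone. They ranged from 2207 to 3384 with 1 array left out and from 2277 to 3910 otherwise, including the methods' t-test with 2848 at its threshold and 2277 after Benjamini-Hochberg. The share called higher, 57.2%, was 43.8% in injected males alone and 44.4% with the Gapdh covariate. With that covariate 4 PPARA list members were called lower, 1 of heat shock and 1 of oxidative stress. The lower count was 2 for the proteasome and 0 for the unfolded protein response. Called higher were 3 genes of cholesterol synthesis, 2 androgen-induced genes and 1 of the respiratory chain. The higher count was 0 for glycolysis and hypoxia and 0 for the thick ascending limb. Tmem250-ps, higher by 2.92, had -0.61 with the pyruvate carboxylase covariate. The 54 interaction calls became 30 with an offset of 16, 14 in the upper 60%, 31 with array weights and 28 at a threshold of 0.03. With 1 array left out they ranged from 21 (without M30-2) to 2945 (without M30-3), with 202 without M13, 179 without M30-4, 91 without M12, 24 without M9 and 35 without M7 or M30-5. The female difference had 0 calls, and 0 to 1 with 1 array left out. The 746 calls between males and females became 1598 with array weights and 487 at 0.03, and ranged from 319 (without F10-3) to 1330 (without No5). With labels permuted over all 10 arrays the Tfrc difference was -1.47 and no longer passed (adjusted p = 0.0508, exact permutation). After quantile normalization the poly-A spikes differed by 0.0218 and the array median by 0.001, both past the threshold. With 1 array left out the Gapdh difference was 0.21 to 0.30, pyruvate carboxylase 3′ minus 5′ 3.58 to 4.22, its 5′ signal -3.77 to -3.13, Tfrc -1.93 to -1.36 and the hybridization spikes -0.38 to -0.26, in designs too small to pass the threshold in most cases. In 1 fit the array weights were estimated with a warning of incomplete convergence. The cause of these changes was not tested. Aplnr was not called without M30-4. No paired analysis was possible because the animal numbers are unique. Probe sets near the floor of the signal have no measurable decrease, and what the prefix marks was not analysed here.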
